A study of Mus musculus with 6 samples.

Results

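The deoxynucleotide supply enzymes make, balance and remove the building blocks of DNA. Transcripts of 9 of them were compared between haematopoietic stem cells (HSCs) of mice labelled as Irgm1 mutant and of mice labelled as wild type. Irgm1, also called Lrg-47, is an interferon-induced GTPase. The 9 genes were Rrm1, Rrm2, Rrm2b, Tk1, Tyms, Dut, Dck, Samhd1 and Dctd. Every probe set that the platform annotation assigns to exactly 1 of these symbols was taken, which gave 26 of the 45101 probe sets on the array. A probe set is a group of short probes that reads 1 transcript region.

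RNA of Lrg47_HSC samples (labelled Irgm1 mutant, 3 arrays) and of WT_HSC samples (wild type, 3 arrays) was hybridised to Affymetrix arrays, 1 array per sample. All mice were C57BL/6 aged 8 to 12 weeks and were housed free of specific pathogens. In both groups the cells came from whole bone marrow by sorting of the Hoechst side population with Sca-1, c-kit and lineage stains. The labels do not say how many mice gave each sample, so the p-values measure the spread between these samples, which may be technical. The part of Irgm1 deleted in the mutant is not stated either. The Irgm1 probe set read 7.68, 8.58 and 7.84 in Lrg47_HSC and 8.39, 8.57 and 8.36 in WT_HSC (log2 difference -0.41, SE 0.25, adjusted p = 0.475), and a probe set outside the deleted part checks nothing. The groups are therefore called by their labels.

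Ribonucleotide reductase turns ribonucleotides into deoxynucleotides and sets the pace of their supply. It joins the large subunit Rrm1 to a small subunit, which is Rrm2 in S phase and Rrm2b, a target of p53, outside it or after DNA damage. Thymidylate comes from deoxyuridylate through Tyms, with Dut and Dctd feeding that substrate, or by salvage of thymidine through Tk1, while Dck salvages deoxycytidine and purine deoxynucleosides. Samhd1 works in the other direction and cleaves deoxynucleoside triphosphates. Adult stem cells of the marrow are mostly quiescent, and Rrm2, Tk1 and Tyms are known as genes of cells that replicate DNA.

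The S-phase enzymes Rrm2, Tk1 and Tyms rose in Lrg47_HSC, by 3.46-fold, 3.25-fold and 2.34-fold by the brightest tested probe set of each gene. Rrm2b, Samhd1 and Dctd overlapped between the groups on every probe set tested. Rrm1, Dck and Dut did not pass, though their brightest probe sets read higher on all 3 Lrg47_HSC arrays than on any WT_HSC array. Dck differed by 2.57-fold, more than Tyms. Its adjusted p by limma was 0.0545, against 0.0499966 for Tyms and a threshold of 0.05. Of the 26 probe sets, 21 passed the filter on dim signals and were tested, 4 were called higher and 0 lower by limma with Benjamini-Hochberg adjustment over all 22580 probe sets tested. By limma at an unadjusted p under 0.05, 0 of the 21 were lower and 11 higher (7.52% of the 22580 were higher). Of these 11, the dim probe sets Rrm1 1440073_at and Tyms 1442192_at were above the median of the array on fewer than 3 WT_HSC arrays and passed the filter through Lrg47_HSC, so the count is a description of what passed. Neither of them is among the 4 called. Among all tested probe sets the background was 0.664% called higher, 0.722% called lower and 1.39% called in either direction. By genes, 3 of 9 were called, against 1.08% of 10374 tested genes called higher.

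**Figure D1:**
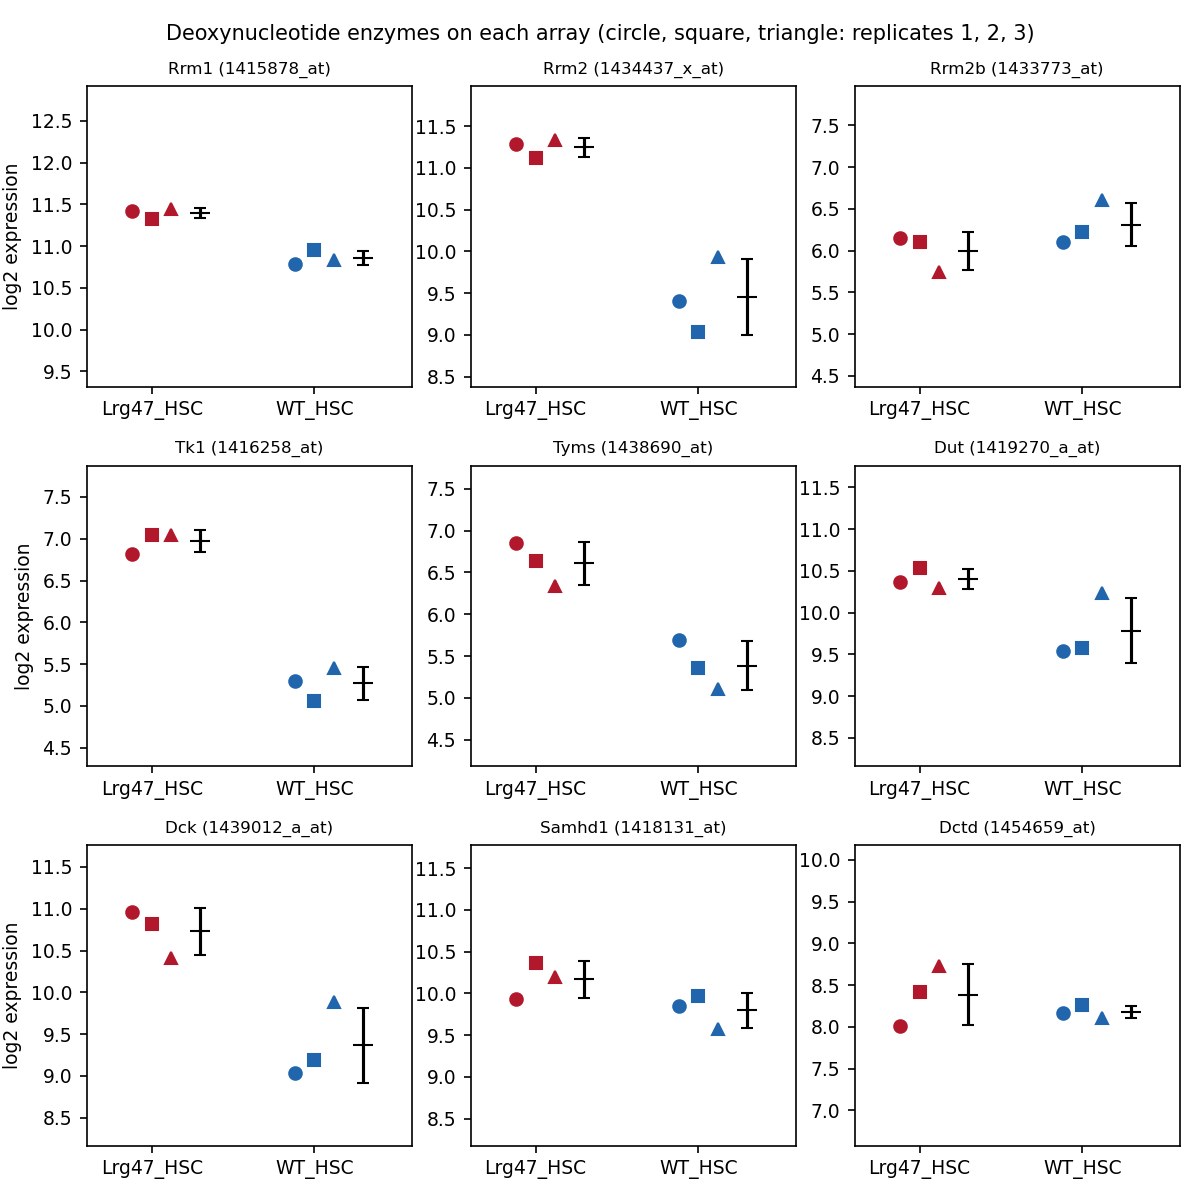
Log2 expression of each enzyme on the 6 arrays, by the brightest tested probe set. Lrg47_HSC is on the left and WT_HSC on the right of each panel, symbols mark replicates, and black bars give the mean and SD of 3 arrays. Every panel spans the same log2 range. The groups are apart for Rrm2, Tk1, Tyms, Dck, Rrm1 and Dut and overlap for Rrm2b, Samhd1 and Dctd.

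Rrm2, the small subunit that limits reductase activity in S phase, was read by 3 probe sets. The brightest (1434437_x_at) gave 11.29, 11.12 and 11.33 in Lrg47_HSC against 9.40, 9.03 and 9.93 in WT_HSC on the log2 scale. The Lrg47_HSC arrays had a mean of 11.25 and an SD of 0.11, and the WT_HSC arrays, with a mean of 9.46 and an SD of 0.45, all lay below them. The log2 difference was 1.79 (SE 0.23, adjusted p = 0.0176). The suffix x in this name marks a probe set whose probes may also match other sequences.

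The other pair of Rrm2 probe sets went the same way. Probe set 1448226_at gave 7.05, 7.28 and 7.15 in Lrg47_HSC against 4.71, 4.68 and 5.73 in WT_HSC, or 2.12 higher in Lrg47_HSC on the log2 scale (SE 0.30, adjusted p = 0.0261). Probe set 1416120_at gave 6.58, 6.11 and 5.75 in Lrg47_HSC against 4.89, 5.03 and 5.37 in WT_HSC, or 1.05 higher (SE 0.25, adjusted p = 0.106). The groups did not overlap on any of the 3. On each of them WT_HSC replicate 3 was the highest of its group. The brightest Rrm2 probe set did not pass without Lrg47_HSC replicate 1 or 2 or WT_HSC replicate 1 or 2 (adjusted p of 0.0879, 0.0651, 0.0898 and 0.0555), while its difference stayed between 1.58 and 2.03 when any 1 array was left out. Probe set 1448226_at lost its call in 8 of 16 alternatives, among them 5 of the 6 fits with 1 array left out (adjusted p of 0.0559 to 0.113).

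Rrm1, the large subunit that is present through the cell cycle, read 11.43, 11.33 and 11.44 in Lrg47_HSC against 10.79, 10.95 and 10.83 in WT_HSC on its brightest probe set (1415878_at). The groups were apart by 0.37 at their nearest arrays, and the log2 difference was 0.54 (95% confidence interval 0.27 to 0.81, adjusted p = 0.0816), which did not pass. The dim probe set 1440073_at gave 5.11, 4.74 and 4.12 in Lrg47_HSC against 3.38, 3.16 and 4.27 in WT_HSC, and these groups overlapped (log2 difference 1.05, SE 0.34, adjusted p = 0.200). It was above the median of the array on fewer than 3 WT_HSC arrays, so the Lrg47_HSC arrays carried it through the filter. Probe set 1448127_at differed by 0.23 (SE 0.19, adjusted p = 0.597).

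Rrm2b, the alternative small subunit, read 6.15, 6.10 and 5.74 in Lrg47_HSC against 6.11, 6.23 and 6.60 in WT_HSC (probe set 1433773_at). The ranges overlapped and the log2 difference was -0.32 (95% confidence interval -0.80 to 0.17, adjusted p = 0.502). The interval of this probe set leaves out a rise of more than 1.13-fold, but that of 1437222_x_at reaches up to 1.55-fold. The Rrm2b probe sets 1437221_at and 1437222_x_at differed by -0.22 (SE 0.20) and 0.23 (SE 0.17), also with overlap. The dim probe set 1437476_at read 3.03 to 3.15 in Lrg47_HSC and 3.04 to 3.14 in WT_HSC and was not tested. The highest value among the control probe sets for bacterial transcripts, which mark the level without signal, was 3.00 to 3.18 on these arrays.

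**Figure D2:**
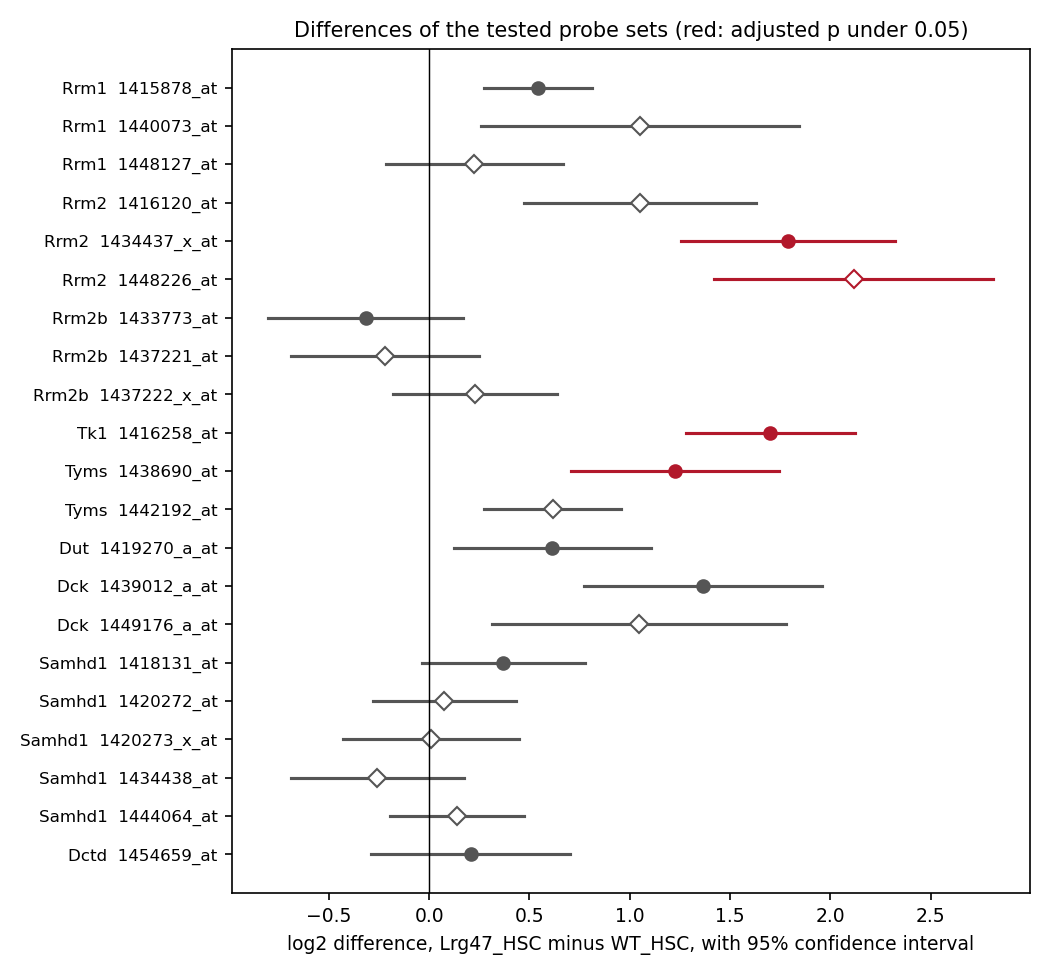
Log2 difference (Lrg47_HSC minus WT_HSC) of the 21 tested probe sets with its 95% confidence interval from limma. Filled circles are the brightest probe sets of a gene, open diamonds the others, and red marks an adjusted p under 0.05. The 3 Rrm2 probe sets and the Tk1 probe set lie to the right of zero, those of Rrm2b and Samhd1 around it, between -0.32 and 0.37.

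Tyms, which methylates deoxyuridylate to thymidylate, was read at 6.85, 6.64 and 6.34 in Lrg47_HSC against 5.69, 5.36 and 5.10 in WT_HSC (probe set 1438690_at). All Lrg47_HSC arrays were above all WT_HSC arrays. The log2 difference was 1.23 (SE 0.22, adjusted p = 0.0499966), just inside the threshold of 0.05. The call was lost in 13 of 15 alternative fits, the ones that left out any 1 array among them, with differences of 1.09 to 1.38. Probe set 1442192_at gave 4.25, 4.11 and 4.58 in Lrg47_HSC against 3.58, 3.79 and 3.73 in WT_HSC, apart in every array but not called (log2 difference 0.62, SE 0.15, adjusted p = 0.107), and it too passed the filter with fewer than 3 WT_HSC arrays above the median. The probe sets 1427810_at and 1427811_at read 2.28 to 2.63 in Lrg47_HSC and 2.26 to 2.60 in WT_HSC, at or below the bacterial controls on all 6 arrays.

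The enzymes that supply the substrate of Tyms did not pass. Dut, which cleaves dUTP to deoxyuridylate and keeps uracil out of DNA, read 10.37, 10.53 and 10.29 in Lrg47_HSC against 9.54, 9.58 and 10.23 in WT_HSC on probe set 1419270_a_at. The groups were apart by only 0.06 at their nearest arrays (log2 difference 0.61, 95% confidence interval 0.13 to 1.10, adjusted p = 0.218). Its dim probe set 1419269_at was at or below the bacterial controls on 2 of 3 Lrg47_HSC arrays and 3 of 3 WT_HSC arrays. Dctd, which deaminates deoxycytidylate to deoxyuridylate, read 8.01, 8.41 and 8.73 in Lrg47_HSC against 8.17, 8.26 and 8.11 in WT_HSC. Its Lrg47_HSC arrays reached both below and above the WT_HSC arrays (log2 difference 0.21, 95% confidence interval -0.29 to 0.70, adjusted p = 0.677).

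Of the salvage kinases, Tk1, the cytosolic thymidine kinase of S phase, read 6.82, 7.04 and 7.05 in Lrg47_HSC against 5.30, 5.05 and 5.45 in WT_HSC on its only probe set. The nearest arrays of the groups were 1.36 apart, the widest separation among the 9 genes. The log2 difference was 1.70 (SE 0.18, adjusted p = 0.009), a 3.25-fold rise with a 95% confidence interval of 2.43 to 4.36. Tk1 lost the call without WT_HSC replicate 1 (adjusted p = 0.0577) or 2 (0.0555).

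Dck, the salvage kinase for deoxycytidine, deoxyadenosine and deoxyguanosine, read 10.96, 10.82 and 10.41 in Lrg47_HSC against 9.03, 9.18 and 9.88 in WT_HSC (probe set 1439012_a_at). The groups did not overlap and the log2 difference was 1.36 (SE 0.25, adjusted p = 0.0545), just outside the threshold. When 1 array was left out, Dck passed in 1 of 6 fits, the one without its highest WT_HSC array, replicate 3 (difference 1.62, adjusted p = 0.0324), and the other 5 gave adjusted p of 0.0629 to 0.188. Its probe set 1449176_a_at gave 7.17, 7.21 and 6.77 in Lrg47_HSC against 5.52, 5.82 and 6.68 in WT_HSC (log2 difference 1.05, SE 0.31, adjusted p = 0.175). A further probe set (1428838_a_at) was at or below the bacterial controls on 2 of 3 Lrg47_HSC arrays and 3 of 3 WT_HSC arrays and was not tested.

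Samhd1, the triphosphohydrolase that lowers deoxynucleotide pools and restricts retroviruses, was the member with most probe sets. Its brightest (1418131_at) read 9.93, 10.36 and 10.20 in Lrg47_HSC against 9.85, 9.97 and 9.57 in WT_HSC, with overlap (log2 difference 0.37, 95% confidence interval -0.04 to 0.78, adjusted p = 0.344). Next in brightness, 1434438_at read 9.03, 9.06 and 9.22 in Lrg47_HSC against 9.38, 9.07 and 9.65 in WT_HSC, and its difference had the other sign (-0.26, SE 0.18, adjusted p = 0.535). The 3 dimmer ones differed by 0.076, 0.0083 and 0.14, with overlap on each. Samhd1 is known as an interferon-inducible gene in some cell types. Of the 9 tested genes of a list of interferon-stimulated transcripts, 7 rose in Lrg47_HSC with a median log2 difference of 2.34. The 4 with the smallest p were Rsad2 (viperin, 3.33, SE 0.13, adjusted p = 0.000214), the chemokine Cxcl10 (3.88, SE 0.27, adjusted p = 0.00157), the deconjugase Usp18 (2.98, SE 0.29, adjusted p = 0.00737) and Ifit1 (4.10, SE 0.47, adjusted p = 0.0118).

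With no filter on dim signals, all 3 Lrg47_HSC arrays lay above all 3 WT_HSC arrays on 11 of the 26 probe sets of the 9 genes, and on 0 did they all lie below. Among all 45037 probe sets that are no Affymetrix controls, 8% lay wholly above and 5.88% wholly below. Of the 11 probe sets, 7 had their highest WT_HSC value on WT_HSC replicate 3, 2 on replicate 1 and 2 on replicate 2. That array also had the smallest 3' over 5' gap of the actin controls in the series, 2.57, where the Lrg47_HSC arrays gave 2.86, 2.81 and 3.56 and the other WT_HSC arrays 3.16 and 3.16. The gap tells how far the amplified RNA reaches from the 3' end. Its part in these values was measured only by adding it to the fit, which left Rrm2 at 1.83 (adjusted p = 0.0158) and Tk1 at 1.71 (adjusted p = 0.00997), both still called, brought Dck to 1.47 (adjusted p = 0.009) and left Tyms at 1.23 (adjusted p = 0.051). The 18S ribosomal RNA control (its 5' probe set) read 12.05, 12.47 and 11.20 in Lrg47_HSC against 11.15, 10.05 and 9.31 in WT_HSC, higher on every Lrg47_HSC array, with replicate 3 the lowest of each group. The part of this control signal in the enzyme values was not tested.

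The promoters of the 3 genes that rose are shown with that of Rrm1, the obligate partner of Rrm2, because E2F and CCAAT-binding factors are known to drive genes of this group in S phase. The windows are the 250 bases before the annotated start, from RefSeq on GRCm38.p6, written 5′ to 3′ on the strand of the gene, and 8 of the 9 genes had one in the table used. Capitals mark matches, on either strand, to the E2F cores TTCCCGC and TTGGCGC, the CCAAT box (CCAAT) and the cell cycle homology region (TTTGAA). No 2 matches overlapped.
Rrm2 promoter, chr12:24708004-24708253, plus strand: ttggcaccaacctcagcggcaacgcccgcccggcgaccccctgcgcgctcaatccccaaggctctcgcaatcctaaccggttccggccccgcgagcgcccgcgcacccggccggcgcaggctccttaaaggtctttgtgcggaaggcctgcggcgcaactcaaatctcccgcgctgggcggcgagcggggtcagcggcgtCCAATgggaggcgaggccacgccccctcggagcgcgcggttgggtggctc
Tk1 promoter, chr11:117826015-117826264, minus strand: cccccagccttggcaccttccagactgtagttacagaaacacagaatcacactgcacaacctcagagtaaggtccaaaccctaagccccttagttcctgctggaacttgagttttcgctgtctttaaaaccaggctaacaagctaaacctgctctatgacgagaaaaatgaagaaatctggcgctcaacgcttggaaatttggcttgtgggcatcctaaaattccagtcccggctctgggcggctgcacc
Tyms promoter, chr5:30073626-30073875, minus strand: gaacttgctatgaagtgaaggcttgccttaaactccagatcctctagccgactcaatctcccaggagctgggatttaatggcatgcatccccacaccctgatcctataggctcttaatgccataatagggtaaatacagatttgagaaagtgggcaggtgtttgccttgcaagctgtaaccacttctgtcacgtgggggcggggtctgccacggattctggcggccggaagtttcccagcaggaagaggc
Rrm1 promoter, chr7:102441445-102441694, plus strand: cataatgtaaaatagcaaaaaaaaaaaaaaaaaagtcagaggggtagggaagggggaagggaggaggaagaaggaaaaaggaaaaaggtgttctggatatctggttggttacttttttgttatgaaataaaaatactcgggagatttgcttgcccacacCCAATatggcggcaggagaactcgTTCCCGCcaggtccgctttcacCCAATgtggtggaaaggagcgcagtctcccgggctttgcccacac

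The Rrm1 window held 1 E2F core, TTCCCGC, from base -67 to -61 counted back from the start, and 2 CCAAT boxes, from -91 and from -45. The Rrm2 window held 1 CCAAT box, from -50 to -46. The Tk1 and Tyms windows held none of the 4 motifs. Among all 32851 RefSeq windows of this length, TTCCCGC occurred in 3.82%, TTGGCGC in 1.97%, CCAAT in 33.8% and TTTGAA in 16%. Of the genes that were not called, the Dck window held 1 TTTGAA on the opposite strand, 2 of 3 Dctd windows held CCAAT, and the Dut and Samhd1 windows held no match. A match is a run of letters and not a bound site, and the lack of one covers only these letters and this window.

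Whether 2 enzymes of the supply changed by different amounts was asked for 4 pairs, by the gap between their log2 values on each array. The gap of Rrm2 over Rrm2b, the 2 small subunits, was 1.99, 1.87 and 2.45 above its WT_HSC mean in Lrg47_HSC, against 0.15, -0.34 and 0.18 in WT_HSC. All Lrg47_HSC arrays were above all WT_HSC arrays, by 2.10 on average (2-sided exact permutation p = 0.1, 0.133 adjusted over the 4 pairs). With 3 arrays against 3, 0.1 is the smallest p that the 20 splits of this test allow.

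The gap of Rrm2 over Rrm1 was larger in Lrg47_HSC by 1.25 and that of Rrm2 over Samhd1 by 1.42, each without overlap and each with an exact permutation p = 0.1 (0.133 adjusted). On every Lrg47_HSC array, both gaps were thus higher than on any WT_HSC array. By these probe sets Rrm2 still read below Rrm1 on every array, with gaps of -0.14, -0.21 and -0.11 in Lrg47_HSC and -1.39, -1.92 and -0.90 in WT_HSC. The sign of this gap depends on the probe set, as Rrm1 had Lrg47_HSC means of 11.40, 4.65 and 6.02 on its probe sets. The gap of Rrm2 over Samhd1 was 1.36, 0.75 and 1.13 in Lrg47_HSC and -0.45, -0.93 and 0.36 in WT_HSC. The salvage kinases Tk1 and Dck were not told apart: their gap was -0.04, 0.32 and 0.73 above its WT_HSC mean in Lrg47_HSC and 0.36, -0.03 and -0.33 in WT_HSC (difference 0.34, exact permutation p = 0.5).

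**Figure D3:**
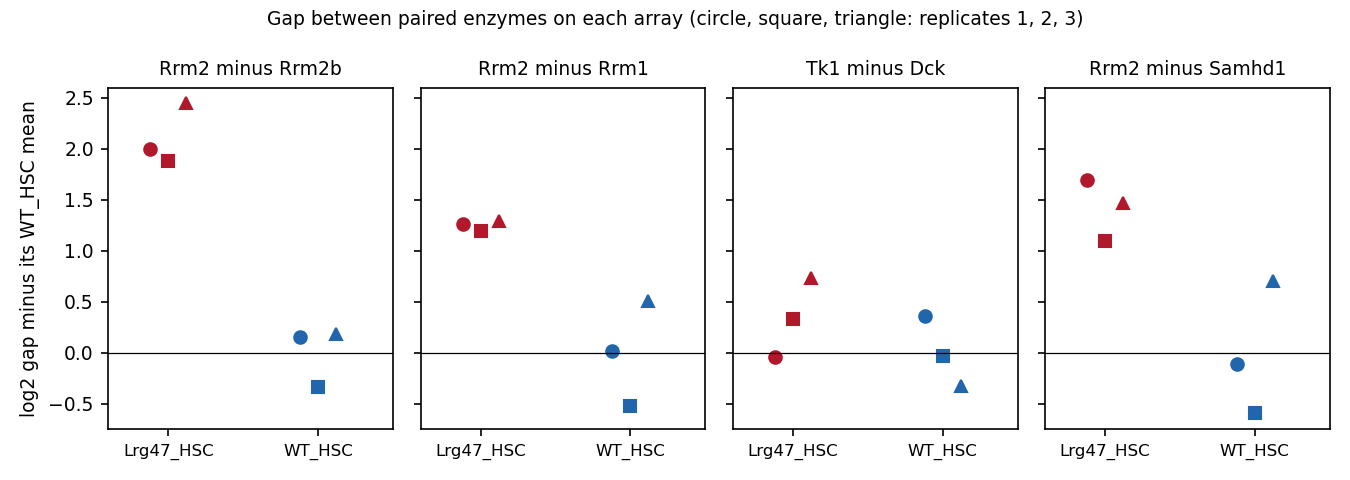
Gap between the log2 values of 2 enzymes on each array, minus the mean gap of the WT_HSC arrays, for the 4 pairs. Lrg47_HSC is on the left, WT_HSC on the right, and symbols mark replicates. The gaps of Rrm2 over Rrm2b, Rrm1 and Samhd1 do not overlap between the groups, and that of Tk1 over Dck does.

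The wider nucleotide pathway was described by 78 further genes, 68 of which had a probe set with 1 symbol and 66 of which were tested. Of these 66, 2 rose, 0 fell and 64 did not pass (11 higher and 2 lower by limma at an unadjusted p under 0.05), against 1.08% called higher and 0.954% called lower among all 10374 tested genes. Their median log2 difference was 0.11, against 0.0032 over all tested genes and 0.61 over the 9 supply enzymes. Both genes that rose phosphorylate nucleoside monophosphates. Dtymk, the thymidylate kinase that follows both Tyms and Tk1, read 12.06, 12.13 and 11.98 in Lrg47_HSC against 10.74, 11.32 and 10.93 in WT_HSC (log2 difference 1.06, SE 0.16, adjusted p = 0.0325), while 2 other tested probe sets of Dtymk were not called. Cmpk2, a mitochondrial nucleotide kinase that interferon is known to induce, read 7.83, 8.66 and 8.20 in Lrg47_HSC against 5.68, 6.41 and 6.53 in WT_HSC (log2 difference 2.02, SE 0.30, adjusted p = 0.0313). Neither kinase overlapped between the groups. Cmpk2 lost the call when any 1 array was left out, and Dtymk in each such fit except the one without WT_HSC replicate 2.

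The other 11 kinases tested did not pass, Nme1 (0.36, adjusted p = 0.445) and Guk1 (-0.37, adjusted p = 0.497) among them. Of 8 genes of the folate and thymidylate cycle, which supplies the methyl group to Tyms, 0 passed and the median was 0.19. The smallest p there belonged to Mthfd1l (0.61, adjusted p = 0.231), the folate carrier Slc19a1 (0.46, adjusted p = 0.272), Fpgs (-0.31, adjusted p = 0.457) and Shmt2 (0.33, adjusted p = 0.494). Of 4 genes for the proteins that re-reduce ribonucleotide reductase, 0 passed, with thioredoxin Txn1 at 0.32 (SE 0.10, adjusted p = 0.176) and glutaredoxin Glrx at -0.33 (SE 0.17, adjusted p = 0.377). Txnrd1 and Gsr, which keep these carriers reduced, differed by 0.13 and 0.03.

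Enzymes that break down or clean the pools had a median of 0.30 over 13 tested genes, with 0 called. Dera, which splits deoxyribose phosphate, differed by 0.84 (SE 0.19, adjusted p = 0.101), Dctpp1 by 0.54 (adjusted p = 0.170), the nucleotidase Nt5c2 by -0.69 (adjusted p = 0.198) and Itpa by 0.52 (adjusted p = 0.203). The de novo pyrimidine and purine routes, which make ribonucleotides for RNA as well, had medians of 0.21 over 8 and 0.13 over 15 genes, with 0 called in either. Cad, which starts pyrimidine synthesis, was at 0.82 (SE 0.29, adjusted p = 0.227) and Umps at -0.40 (adjusted p = 0.301). In purine synthesis Adsl was at 0.50 (adjusted p = 0.210) and Adk, which salvages adenosine, at 0.46 (adjusted p = 0.218). The 5 nucleoside and nucleotide transporters had a median of 0.0011 and 0 calls, the smallest p being that of Slc29a3 (-0.27, adjusted p = 0.687).

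**Figure D4:**
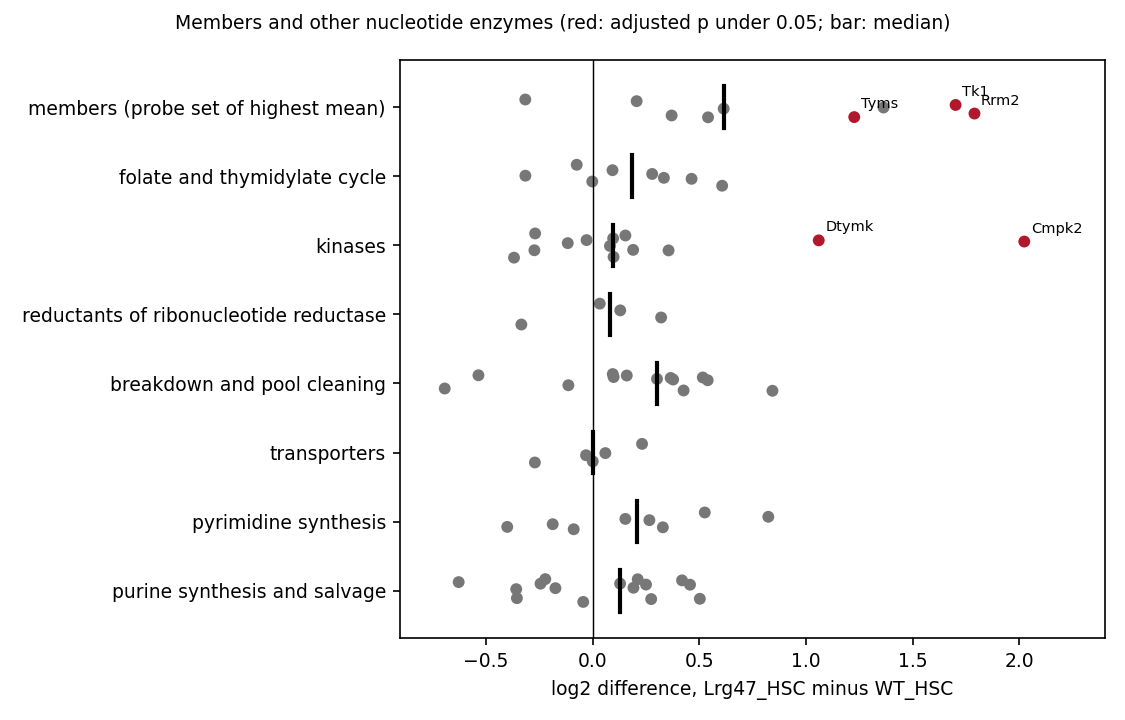
Log2 difference (Lrg47_HSC minus WT_HSC) of the 9 supply enzymes and of 66 other nucleotide enzymes in 7 groups, by the brightest tested probe set of each gene. Each point is a gene, red and named where the adjusted p is under 0.05, and the black bar is the median of the group. The median is 0.61 for the supply enzymes and between 0.0011 and 0.30 for the other groups.

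Rrm2b is one of the genes that p53 induces, so the p53 targets were read beside it. Of 20 tested, 1 rose and 0 fell, with a median of -0.09. The one that rose was Pmaip1, a pro-apoptotic BH3-only gene that interferon is known to induce too (log2 difference 1.48, SE 0.26, adjusted p = 0.0454). The antiproliferative Btg2 was at -0.67 (adjusted p = 0.142), Zmat3 at 0.82 (adjusted p = 0.171) and Sesn1 at -0.30 (adjusted p = 0.268).

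The factors and kinases that act on these genes or their products gave 2 calls among 21 tested, with a median of 0.48. By limma at an unadjusted p under 0.05, 12 of the 21 were higher and 0 lower (7.52% of the 22580 tested probe sets were higher). Cyclin A2 (Ccna2), a cyclin of S phase and G2, rose by 1.95 (SE 0.16, adjusted p = 0.00347), and E2f8, a repressor in the E2F family, by 1.40 (SE 0.25, adjusted p = 0.0462). Cdc20 was at 0.80 (adjusted p = 0.0587) and E2f2 at 0.73 (adjusted p = 0.121). Of 13 proliferation genes, with a median of 1.15, 11 were higher and 0 lower by limma at an unadjusted p under 0.05. After adjustment 4 rose. These were Mki67 (1.73, adjusted p = 0.00783), Mcm5 (1.15, adjusted p = 0.0279), Mcm6 (1.17, adjusted p = 0.0325) and Ccnb2 (2.02, adjusted p = 0.0325). Pcna, the sliding clamp of DNA polymerases, was at -0.05 (95% confidence interval -0.54 to 0.45, adjusted p = 0.936) and is named here after its value was seen.

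Among 10365 genes that are not supply enzymes, the pattern of Rrm2 over the 6 arrays was nearest to those of Pvt1, Ccna2, Plac8, Ckap2l and Espl1. Nearness was the mean over arrays of the absolute difference between log2 values centred per gene, and it was 0.16 to 0.19 for these 5, against a median of 0.90 for all. The pattern of Tk1 was nearest to Ckap2l, Ccna2, Clca3a1, Espl1 and Ms4a6c, at 0.08 to 0.16 against a median of 0.85. Ckap2l, Ccna2 and Espl1 are known genes of mitosis and the cell cycle and stood in both sets, while Ms4a6c is a marker of monocytes. Tk1 was 0.18 from Rrm2, Dck 0.24, Tyms 0.44, Dut 0.59, Rrm1 0.62, Samhd1 0.71, Dctd 0.79 and Rrm2b 1.05. Rrm2b thus lay farther from Rrm2 than the median gene. With 6 arrays in 2 groups this order mostly restates the size of each difference.

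Some markers of other cells moved with the same comparison. The summed log2 level of 14 T and NK cell markers was 86.0, 84.0 and 112.3 in Lrg47_HSC against 62.2, 57.0 and 61.7 in WT_HSC. Of 9 tested, 5 rose: Ccl5 (log2 difference 4.93, adjusted p = 0.00207), Gzmb (3.69, adjusted p = 0.0162), Thy1 (3.63, adjusted p = 0.0209), Ms4a4b (3.71, adjusted p = 0.024) and Klrd1 (3.97, adjusted p = 0.0342). The other 4 did not pass: Nkg7 (2.61, adjusted p = 0.0532), Cd2 (1.99, adjusted p = 0.283), Cd3e (0.77, adjusted p = 0.464) and Cd247 (0.19, adjusted p = 0.829). Gzmb read 3.87, 3.00 and 3.64 in WT_HSC and Cd2 3.81, 3.65 and 3.13, where the array medians were 3.67, 3.71 and 3.69. Both were above the median on fewer than 3 WT_HSC arrays and passed the filter through Lrg47_HSC. Cd3d, Cd3g, Cd5 and Klrk1 were at or below the bacterial controls on all WT_HSC arrays. Without Lrg47_HSC replicate 3, where the summed level was highest, the difference of Rrm2 was 1.75 (adjusted p = 0.0489), that of Tk1 1.66 (adjusted p = 0.0257) and that of Tyms 1.36 (adjusted p = 0.0555). The sums of 86.0 and 84.0 left in Lrg47_HSC still lay above every WT_HSC sum, so that fit cannot separate the part of these cells. Of 8 monocyte and macrophage markers 2 rose, Ms4a6c and Ms4a6b (summed level 60.0 to 64.8 in Lrg47_HSC, 54.4 to 61.3 in WT_HSC). By limma at an unadjusted p under 0.05, 4 were higher and 1 lower (7.52% of the 22580 tested probe sets were higher). Of the 4, Ccr2 read 4.13, 2.86 and 2.80 in WT_HSC. It was below the array median on WT_HSC replicates 2 and 3 and passed the filter through Lrg47_HSC. The lower one was Cd14, which read 7.90 to 8.58 in Lrg47_HSC and 9.37 to 9.80 in WT_HSC (log2 difference -1.25, adjusted p = 0.0518). Lyz2 differed by -0.04 (adjusted p = 0.958). B cell, erythroid and neutrophil markers had 0 calls among 2, 3 and 4 tested genes, and 0 of these passed at an unadjusted p under 0.05 by limma. At or below the bacterial controls on every array were 3 of 7 B cell markers (Cd79a, Pax5, Vpreb1), 4 of 7 erythroid markers (Klf1, Alas2, Hba-a1, Car1) and 3 of 9 neutrophil markers (Elane, Ctsg, Camp). Other markers of these lists stood above them. The B cell gene Cd79b read 6.45 to 6.73 in Lrg47_HSC and 6.65 to 7.39 in WT_HSC, and the transferrin receptor Tfrc 9.66 to 9.95 in Lrg47_HSC and 9.37 to 9.73 in WT_HSC. The granule protease Prtn3 read 9.75 to 9.84 in Lrg47_HSC and 7.21 to 9.73 in WT_HSC, and the granule gene Ngp 4.90 to 7.01 in Lrg47_HSC and 5.32 to 7.47 in WT_HSC. The summed level of the B cell markers was 23.8 to 24.1 in Lrg47_HSC and 23.5 to 26.3 in WT_HSC. That of the erythroid markers was 28.3 to 29.0 in Lrg47_HSC and 27.3 to 28.2 in WT_HSC, and that of the neutrophil markers 38.3 to 42.4 in Lrg47_HSC and 35.6 to 40.4 in WT_HSC. Of 10 HSC markers 0 passed (1 higher and 5 lower at an unadjusted p under 0.05), with a median of -0.35 and a summed level of 95.2 to 98.3 in Lrg47_HSC and 97.7 to 98.9 in WT_HSC. The part of these other cells in the enzyme values was not tested. In bulk RNA, a different share of replicating cells and a different amount of transcript per cell cannot be told apart.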

How the data were processed

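Expression was measured in sorted mouse HSCs on 6 arrays of 45101 probe sets. The values the authors deposited are log2 expression values per probe set. GCRMA made them, per the submitters' processing notes. Its version and settings and a genome build were not given in the sources used here. That the scale is log2 follows from the range of the values. GCRMA corrects background by probe sequence and normalises between arrays, so folds of dim probe sets depend on it. Per the labels' protocols, RNA was amplified in a pair of T7 transcription rounds, which favours 3' ends.

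The deposited values were used unchanged. Of the probe sets, 34958 had 1 gene symbol in the platform annotation, 932 several and 9211 none. A probe set was tested when above the median of its array on at least 3 of 6 arrays and no Affymetrix control (22580). The contrast Lrg47_HSC minus WT_HSC was fitted in R 4.3.3 with limma 3.58.1 (lmFit, eBayes with an intensity trend, 2-sided, Benjamini-Hochberg over all tested, threshold 0.05). Adjusted p-values, except those over the 4 pairs, are from this fit or from an alternative of it that is named in the text. Where 1 value stands for a gene, it is that of its brightest tested probe set (highest mean of 6 arrays). Probe sets of a gene share a transcript and are not replicates.

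Named genes were all members with every probe set, up to 4 genes of smallest p in each other list, and the 5 nearest genes to Rrm2 and to Tk1. The members and lists were chosen with earlier results of these data known. Pairs were tested by exact permutation over arrays. The fit was tested on simulated data, where the sign was checked only for the changed probe sets that it called, and that check passed. The arrays shared the value of at most 6 probe sets, so none was a copy. The number of arrays limits the precision.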

Additional observations from a re-analysis of the deposited data

Results flagged for a closer look

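One probe set outside the comparisons carried signal. Probe set 1424991_s_at is annotated to both Tyms and its pseudogene Tyms-ps and was left out because it has 2 symbols. It read 8.18, 8.54 and 8.11 in Lrg47_HSC against 7.32, 7.40 and 7.75 in WT_HSC, above the bacterial controls on every array and with no overlap between the groups. The log2 difference was 0.79 (SE 0.20, adjusted p = 0.128), which did not pass. Transcripts of the gene and of the pseudogene cannot be told apart by it.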

How the results depend on the processing

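Over all probe sets tested, 313 were called. The count was 103 with no filter on dim probe sets, 126 with a filter at the 25th percentile, 864 with array weights, 515 with the actin gap as a covariate (an alternative chosen after seeing the data), 629 at an adjusted p under 0.1 and 57 at 0.01, and 45 to 267 with 1 array left out. The 4 called probe sets of the supply enzymes became 2 with no filter and at the 25th percentile, 8 with array weights, 7 with the actin gap, 1 at 0.01 and 0 to 4 with 1 array left out. The 3 called genes became 5 at an adjusted p under 0.1, 1 at 0.01 and 0 to 3 with 1 array left out (0 without WT_HSC replicate 1 or 2). The 2 called genes among the other nucleotide enzymes became 0 with no filter, at the 25th percentile and at 0.01, and 0 to 1 with 1 array left out. The 1 called p53 target became 0 with no filter, at the 25th and 70th percentiles, with quantile normalization, with median centring, at 0.01 and with any 1 array left out (0 to 0). Why these counts moved was not tested, except that leaving out an array or a filter changes how many arrays or probe sets enter.

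The replicate numbers did not pair the arrays: same-numbered arrays correlated at -0.11, -0.02 and -0.28 in their deviations from the group means, and 0 of 6 arrays correlated best with its own number. With the replicate block, 68 probe sets were called in all, 1 probe set and 1 gene among the supply enzymes (Rrm2), 0 other nucleotide enzymes and 0 p53 targets.

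Every tested probe set of Rrm1, Rrm2, Tk1, Tyms, Dut, Dck and Dctd kept its sign in every alternative. Signs turned for 3 probe sets of Rrm2b and Samhd1. Rrm2b 1437221_at was at 0.0017 without WT_HSC replicate 1 (-0.37 to 0.0017 with 1 array left out). Samhd1 1420272_at was at -0.024 with array weights and -0.033 without Lrg47_HSC replicate 3 (-0.033 to 0.14 with 1 array left out). Samhd1 1420273_x_at was at -0.018 with median centring, -0.093 with array weights, -0.039 with the actin gap, -0.097 without Lrg47_HSC replicate 3 and -0.066 without WT_HSC replicate 3 (-0.097 to 0.10 with 1 array left out). The 4 pair gaps kept their sign in all 9 alternatives each, and their exact permutation p ranged from 0.1 to 0.8.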
